A study of Mus musculus with 60 samples.

Results

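Tazemetostat was set against its solvent DMSO in CH12F3 cells that all received idelalisib, using 5 tazemetostat and 5 DMSO libraries of the 60 libraries in the series. CH12F3 is a lymphoma line of mouse B cells that can change the class of its antibody, mainly to IgA. Both groups had the AID_WT genotype, were stimulated over 72 h with TGF-β, IL-4 and anti-CD40, and differed only in tazemetostat or DMSO. The libraries were chosen by their titles, and all 10 came from 1 sequencing run. Doses are not given in the labels, and a single cell line was used. Each library lists junctions found by LAM-HTGTS, a sequencing assay of translocations by linear amplification, which records where other DNA was joined to a fixed broken end, the bait. The series asks whether inhibitors of EZH2 change translocations in B cells, here with idelalisib added.

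Tazemetostat inhibits EZH2, the methyltransferase of Polycomb repressive complex 2 that places repressive methyl groups on lysine 27 of histone H3. Idelalisib inhibits PI3Kδ and is known to raise the activity of activation-induced cytidine deaminase (AID) in B cells. AID deaminates cytosines in the switch regions of the immunoglobulin heavy chain locus (Igh) while they are transcribed. Breaks in the donor region mu are joined to breaks in a downstream region such as gamma1 or alpha, which changes the antibody class. IL-4 is known to open gamma1 and epsilon to transcription, and TGF-β opens alpha and gamma2b. AID also reaches other genes, at a lower rate, and breaks there can be joined to the bait as translocations.

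The tazemetostat libraries held 10775 to 13224 junctions each (58377 in all) and the DMSO libraries 10350 to 12492 (57744 in all). Of these, 414 to 437 per tazemetostat library and 407 to 471 per DMSO library lay in Igh. No library stood apart as a repeat of another, since the 45 pairs shared 1.045% to 1.861% of their junctions outside the bait window. The bait was densest at chromosome 15, 61818800 to 61818999 (mm9), in the interval of the Myc and Pvt1 genes, with 5287 of 65054 junctions of the DMSO libraries without AID. The lists carry no expression values, so the cell type could be checked only by its junctions. Igh held 2140 junctions with tazemetostat and 2186 with DMSO, while the DMSO libraries without AID held 22 Igh junctions. All shares describe the distribution of junctions, not their number per cell. Since separate cultures are not stated for the replicates, p-values measure the spread between libraries, which may be technical.

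Within Igh, junctions at the gamma1 switch region rose with tazemetostat and those at the donor region mu fell, while the other switch regions did not pass the test. Gamma1 is the switch region upstream of the exons of IgG1. Each region was taken as the 5 kb on either side of its densest 1 kb, which for gamma1 was chromosome 12, 114574000 to 114574999 (mm9), 89 kb below the mu peak. Gamma1 took 9.60%, 9.05%, 7.42%, 8.24% and 8.70% of Igh junctions in the tazemetostat libraries. It took 4.02%, 1.72%, 4.29%, 4.25% and 4.09% in the DMSO libraries. Every tazemetostat library lay above every DMSO library. The means were 8.60% ± 0.826 with tazemetostat and 3.67% ± 1.10 with DMSO (SD, n = 5 each), a difference of 4.93 percentage points (95% interval 3.64 to 6.42) and a ratio of 2.34. By the exact two-sided permutation test of means p was 0.00794, the smallest this design allows, and the adjusted p over 9 parts of Igh was 0.0357. In all, 184 gamma1 junctions were found with tazemetostat and 81 with DMSO. Of the 9 parts, 2 passed (22.2%).

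The mu region is the donor in class switching and gave the largest share of Igh junctions in both groups. Its densest 1 kb ran from 114663000 to 114663999 on chromosome 12. Mu took 46.8%, 44.3%, 47.3%, 43.0% and 41.8% of Igh junctions with tazemetostat. It took 50.9%, 51.4%, 49.8%, 48.4% and 48.6% with DMSO. All tazemetostat libraries were below all DMSO libraries. The mean was 44.7% ± 2.39 with tazemetostat and 49.8% ± 1.31 with DMSO (SD, n = 5 each), a difference of -5.15 points (95% interval -8.05 to -2.01, exact permutation test, adjusted p = 0.0357). Shares of Igh sum to 100%, so the mu and gamma1 differences are not independent of each other.

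**Figure D1:**
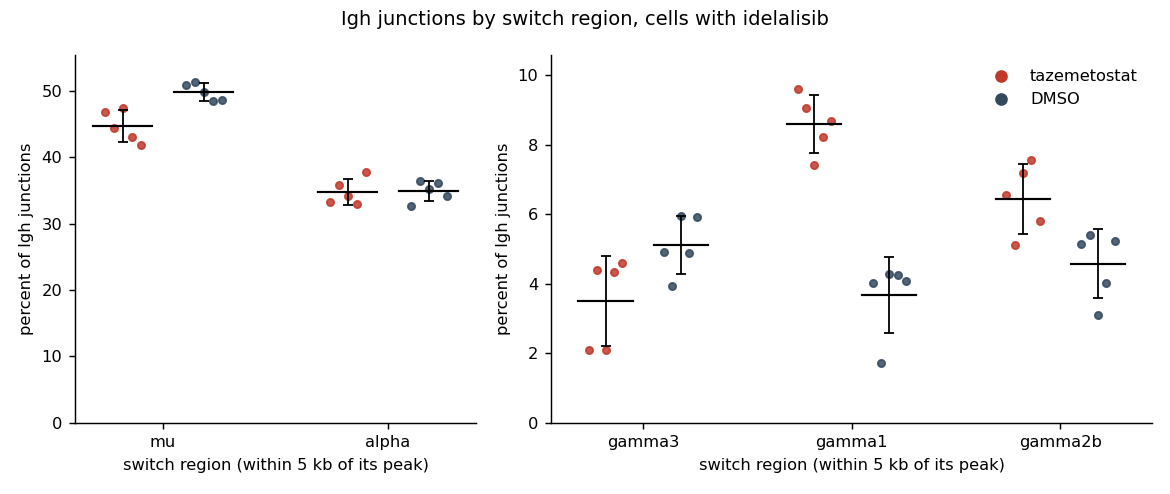
Percent of a library's Igh junctions (vertical axes, from 0) in each switch region, tazemetostat in red and DMSO in dark blue, with 1 point per library and the mean and SD in black (n = 5 each). At gamma1 the tazemetostat points, 7.42% to 9.60%, lie above all DMSO points, and at mu they lie below them.

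Gamma2b and gamma3 gave differences in opposite directions, and neither passed after adjustment. Gamma2b, the region of IgG2b, had 6.56%, 5.10%, 7.19%, 7.55% and 5.80% of Igh junctions with tazemetostat and 5.13%, 5.41%, 3.10%, 4.03% and 5.23% with DMSO. The groups overlapped, with 4 of 5 tazemetostat libraries above every DMSO library, and the mean difference was 1.86 points (exact permutation test, p = 0.0317, adjusted p = 0.0952). It passed with parts of 2 kb or 10 kb on each side, where the exact test gave an adjusted p of 0.0317 for 2 kb and 0.0476 for 10 kb. Gamma3, the region of IgG3, averaged 3.51% ± 1.29 with tazemetostat and 5.12% ± 0.841 with DMSO (SD, n = 5 each). Its difference of -1.61 points gave an adjusted p of 0.143 (exact permutation test). With each of the 10 libraries left out in turn, it passed only without DMSO replicate 2 (adjusted p = 0.0476 by that test).

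Alpha, the region of IgA to which CH12F3 cells switch, took 34.7% ± 1.96 with tazemetostat and 34.9% ± 1.55 with DMSO (SD, n = 5 each). The 95% interval of the difference ran from -2.69 to 2.54 points. Gamma2a and epsilon were nearly empty, with 3 and 1 junctions with tazemetostat and 1 and 1 with DMSO. Gamma2a serves IgG2a and epsilon IgE. The remainder of the switch span held 8 junctions in each group, and 32 junctions with tazemetostat and 33 with DMSO lay in Igh outside it.

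Gamma1 and mu also separated the groups when counted against all junctions of a library. Gamma1 made up 0.316% ± 0.0312 of all junctions with tazemetostat and 0.138% ± 0.0397 with DMSO (SD, n = 5 each), a ratio of 2.28 with no overlap between groups (adjusted p = 0.0357 by the exact permutation test). Mu made up 1.64% ± 0.0884 with tazemetostat and 1.89% ± 0.104 with DMSO, again with no overlap and the same adjusted p by that exact test. Taken as a percent of junctions outside the bait window, both had an adjusted p of 0.0714 (exact permutation test). Before adjustment, gamma1 stayed at the smallest exact p of 0.00794, while mu had p = 0.0238 by that test.

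At 1 kb resolution the gamma1 rise covered 3 neighbouring bins. In limma voom fits on the bins of the switch span, 7 of 16 bins passed (43.8%), 3 higher and 4 lower with tazemetostat. With limma trend 5 passed, 3 higher and 2 lower. The bin of the gamma1 peak held 10 to 15 junctions per tazemetostat library (66 in all) and 2 to 11 per DMSO library (32 in all), with a log2 fold change of 1.17 ± 0.306 (SE, limma adjusted p = 0.00317). The bin above it, 114575000 to 114575999, held 45 junctions with tazemetostat and 14 with DMSO (log2 fold change 1.54, limma adjusted p = 0.0146). The bin below the peak held 25 with tazemetostat and 7 with DMSO, with a log2 fold change of 1.66 and the same adjusted p from limma. A further gamma1 bin tested, 114576000 to 114576999, held 40 with tazemetostat and 26 with DMSO. It did not pass (log2 fold change 0.62, limma adjusted p = 0.148).

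The 4 bins that were lower lay at mu and gamma3. The mu peak bin held 587 junctions with tazemetostat and 665 with DMSO, a log2 fold change of -0.19 (limma adjusted p = 0.0110), and the bin 1 kb below it held 297 with tazemetostat and 347 with DMSO (-0.24, limma adjusted p = 0.0285). At gamma3 the bin from 114603000 to 114603999 held 9 junctions with tazemetostat and 24 with DMSO, a log2 fold change of -1.54 (limma adjusted p = 0.0241). The gamma3 peak bin held 53 with tazemetostat and 71 with DMSO, a log2 fold change of -0.58 (limma adjusted p = 0.0493). The gamma3 region as a whole did not pass the exact test. None of the 4 alpha bins tested passed.

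**Figure D2:**
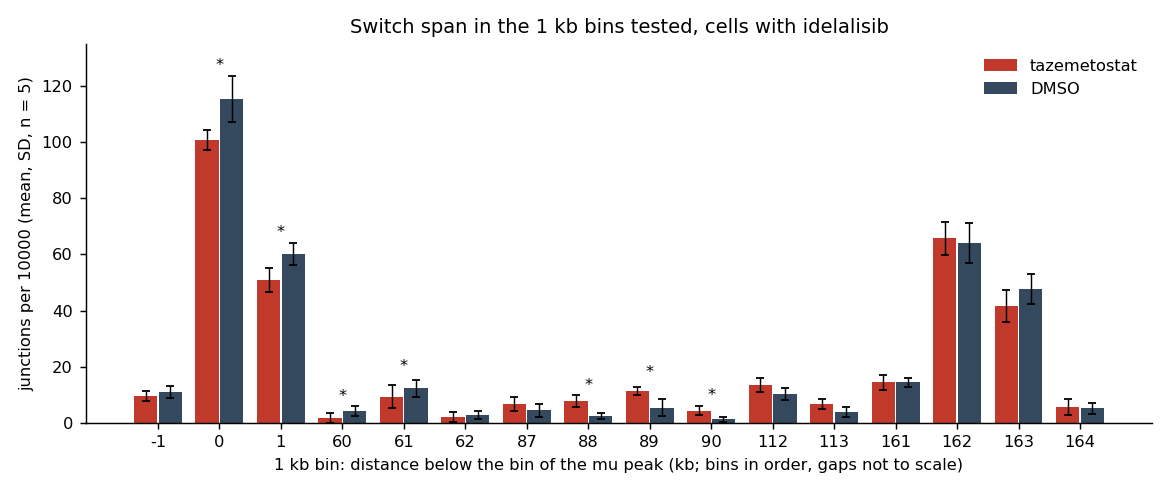
Junctions per 10000 junctions of a library (mean and SD, n = 5 each; vertical axis from 0) in the 16 bins of 1 kb tested in the switch span, tazemetostat left in red and DMSO right in dark blue. Bins are in order of their distance in kb below the mu peak, gaps between them are not to scale, and a star marks an adjusted p under 0.05 from limma: red bars are higher at 88 to 90 kb and lower at 0, 1, 60 and 61 kb.

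The tazemetostat effect at gamma1 was then set against the effect in cells without idelalisib, which had their own tazemetostat and DMSO libraries (5 each) in another run. There gamma1 took 3.72%, 2.47%, 4.08%, 3.88% and 4.02% of Igh junctions with tazemetostat. With DMSO it took 2.97%, 3.30%, 4.09%, 2.02% and 2.37%. These groups overlapped, and the difference was 0.685 points (exact permutation test, p = 0.175). The effect with idelalisib exceeded it by 4.24 points (Freedman-Lane permutation test, adjusted p = 0.00096 over 16 terms). Against all junctions the gamma1 effects were 0.178 points with idelalisib and -0.00451 without, and they differed by 0.182 points (Freedman-Lane permutation test, adjusted p = 0.00036 over 9 terms). On the log2 scale the gamma1 difference no longer passed (0.97, permutation test, adjusted p = 0.0629). Idelalisib and run cannot be told apart here.

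For mu among Igh junctions, the effect was -5.15 points with idelalisib and -1.11 without, and the difference between them did not pass (Freedman-Lane permutation test, adjusted p = 0.111). Against all junctions the mu effects were -0.247 points with idelalisib and -0.362 without (exact permutation test, p = 0.00794 for each). Their difference did not pass either (Freedman-Lane permutation test, adjusted p = 0.428). For gamma3 the effects were -1.61 points with idelalisib and -2.33 without (Freedman-Lane permutation test of their difference, adjusted p = 0.746). Without idelalisib the gamma3 groups did not overlap, at 0.826% to 1.66% with tazemetostat and 2.27% to 4.12% with DMSO (exact permutation test, p = 0.00794). The Igh share differed by -0.106 points with idelalisib and by -0.710 points without (exact permutation test, p = 0.00794 without). The difference between these effects had an adjusted p of 0.0884 by the Freedman-Lane permutation test. Without tazemetostat replicate 1 of the idelalisib group, or tazemetostat replicate 2 of the other, that adjusted p was 0.0180 and 0.0360. These were the only 2 of the 20 libraries whose removal brought it past the threshold. Valemetostat, another compound directed at EZH2, was given with idelalisib in a further run. Its gamma1 share was 8.72% ± 1.69 and its mu share 43.9% ± 3.24 (SD, n = 5). That run held no DMSO library, so no effect of valemetostat can be read from these values.

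**Figure D3:**
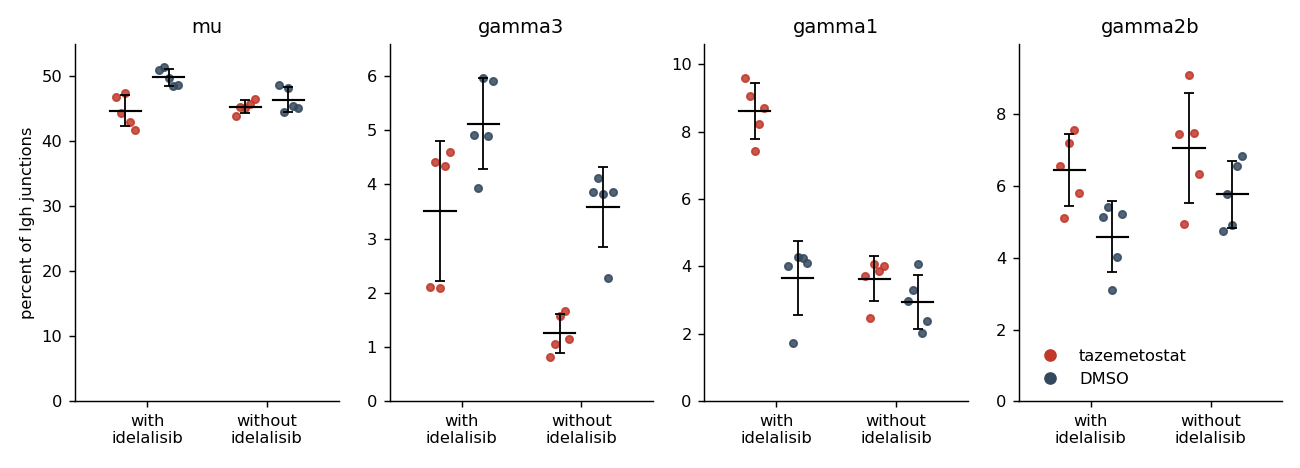
Percent of Igh junctions (vertical axes, from 0, each panel on its own scale) at mu, gamma3, gamma1 and gamma2b with and without idelalisib, tazemetostat in red and DMSO in dark blue. Points are libraries and black lines the mean and SD (n = 5 each): at gamma1 the groups separate with idelalisib and overlap without it.

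Over the genome as a whole, the shares of tazemetostat and DMSO libraries overlapped in each of 7 broad classes of position, and 0 of 7 passed (0%). A lone class at the smallest exact p of 0.00794 would not pass after adjustment over 7 classes. The count of 0 by itself therefore does not show that the shares were alike. The share within 1 kb of the bait was 16.4% ± 1.30 with tazemetostat and 16.9% ± 1.29 with DMSO. From 1 to 20 kb it was 12.8% ± 1.73 with tazemetostat and 11.7% ± 0.487 with DMSO. The genome-wide class, which leaves out chromosome 15 and the immunoglobulin loci, held 62.0% ± 3.20 with tazemetostat and 62.9% ± 1.73 with DMSO (SD, n = 5 each). Its difference had a 95% interval from -4.60 to 3.25 points.

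The light chain loci Igk and Igl encode the other antibody chain and have no switch regions. They held 9, 3, 4, 5 and 2 junctions in the tazemetostat libraries and 11, 9, 6, 5 and 9 in the DMSO libraries. The groups overlapped, and the shares of 0.0382% ± 0.0190 with tazemetostat and 0.0701% ± 0.0234 with DMSO (SD, n = 5 each) did not pass (exact permutation test, p = 0.0556, adjusted p = 0.259).

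**Figure D4:**
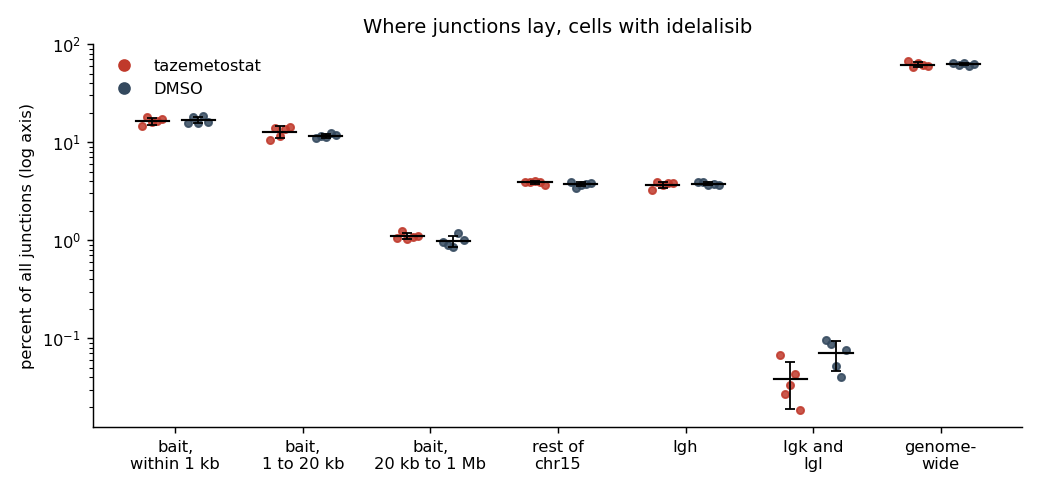
Percent of all junctions of a library (vertical log axis) in 7 classes of position, tazemetostat in red and DMSO in dark blue. Points are libraries and black lines the mean and SD (n = 5 each): the groups overlap in every class, with the widest ratio at Igk and Igl.

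Around the bait, the mix of distances and strands differed between the groups. A bait window of 1 Mb on each side was split by distance, by side (above means higher coordinates, towards Pvt1) and by the strand the lists give, whose relation to the joined end is not stated. Of these 12 shares, 5 passed (41.7%). Junctions within 1 kb below the bait on the minus strand took 6.04%, 8.05%, 7.30%, 7.54% and 6.87% of the bait window with tazemetostat. They took 9.13%, 9.03%, 8.94%, 9.68% and 8.49% with DMSO. The groups did not overlap, and the difference was -1.89 points (95% interval -2.89 to -0.977, exact permutation test, adjusted p = 0.0317).

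Above the bait, plus-strand shares rose and minus-strand shares fell with tazemetostat beyond 1 kb. From 1 to 20 kb the plus strand held 23.4% ± 0.681 with tazemetostat and 21.7% ± 0.625 with DMSO (SD, n = 5 each), with overlap (adjusted p = 0.0381 by the exact permutation test). The minus strand at this distance held 2.62% ± 0.131 with tazemetostat and 2.94% ± 0.135 with DMSO, with no overlap (n = 5 each, exact permutation test, adjusted p = 0.0317). From 20 kb to 1 Mb the plus strand had 74, 80, 72, 75 and 63 junctions with tazemetostat and 59, 47, 47, 71 and 52 with DMSO. As shares these were 2.07% ± 0.159 with tazemetostat and 1.61% ± 0.185 with DMSO, a ratio of 1.28 with overlap (n = 5 each, exact permutation test, adjusted p = 0.0381). The minus strand there had 25, 22, 23, 25 and 22 junctions with tazemetostat and 27, 25, 29, 38 and 43 with DMSO. Its shares were 0.666% ± 0.0530 with tazemetostat and 0.946% ± 0.176 with DMSO, a ratio of 0.704 with no overlap (n = 5 each, exact permutation test, adjusted p = 0.0317).

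These 12 shares sum to 100% and depend on one another. With all junctions of a library as denominator, none of the 12 passed, and the lowest adjusted p was 0.0952 (exact permutation test). A lone share at the smallest exact p of 0.00794 would not pass over 12 shares. Of the 5 called shares, only the minus strand beyond 20 kb above was at that value before adjustment. By the same exact test, unadjusted p was 0.0159 for the plus strand there and 0.0476 within 1 kb below on the minus strand. From 1 to 20 kb above it was 0.159 on the plus and 0.254 on the minus strand. These calls thus depended on the bait window as denominator. Limits of 2 kb and 50 kb ended 4 of the 5 calls and brought 1 other, the minus strand below the bait in the middle zone (1.33 points, adjusted p = 0.0476 by the exact permutation test).

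**Figure D5:**
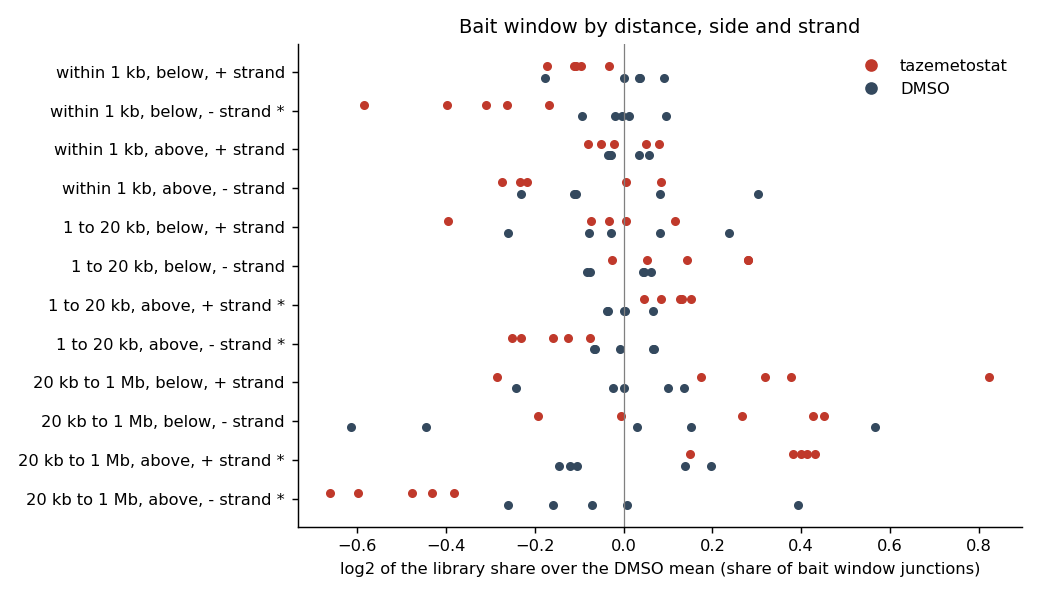
The log2 of each library's share of bait window junctions over the DMSO mean (horizontal axis), by distance, side and strand, with tazemetostat in red above DMSO in dark blue. Each point is a library (n = 5 each) and a star marks an adjusted p under 0.05 by the exact permutation test: minus-strand points above the bait beyond 20 kb lie left of all DMSO points.

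Off-target genes of AID outside the immunoglobulin loci were described with a list of 21 loci. They took 1.08% ± 0.168 of genome-wide junctions with tazemetostat and 1.11% ± 0.198 with DMSO (SD, n = 5 each, 388 and 401 junctions, exact permutation test, p = 0.849). Of the 21 loci, 13 had enough junctions for a joint fit of 72 loci and 100 kb windows, and none of the 13 passed in limma at an adjusted p under 0.05 or an unadjusted one. The median log2 fold change of the 13 was 0.06, with 7 of them above 0.

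Zfp36l1, which encodes an RNA-binding protein that promotes mRNA decay, had the most junctions of the list. It held 13, 14, 15, 15 and 20 with tazemetostat and 19, 9, 13, 31 and 20 with DMSO. The groups overlapped, with a log2 fold change of -0.22 ± 0.257 (SE, limma adjusted p = 0.844). Nfkbia, the inhibitor that holds NF-κB in the cytoplasm, had 44 junctions with tazemetostat and 38 with DMSO. Pim1, a serine/threonine kinase gene and known target of AID, had 37 with tazemetostat and 39 with DMSO. Mir17hg, the host gene of the miR-17-92 cluster, had 32 with tazemetostat and 39 with DMSO, and the activation marker Cd83 had 29 in each group.

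The other loci had a mean under 5 junctions per library in both groups. Among them, and chosen after its values were seen, Cd79b, a signalling chain of the B-cell receptor, had 1, 2, 1, 1 and 1 junctions with tazemetostat and 0 in every DMSO library. A count of 0 allows up to 0.00826% of the genome-wide junctions of the DMSO group, and the locus was too sparse for the fit. Cd79b was the only 1 of the 21 loci whose tallies did not overlap between groups. Other sparse loci differed by as many junctions in both directions. Birc3 had 3 with tazemetostat and 10 with DMSO, and Btg1 had 3 and 9. Ccr7 had 21 with tazemetostat and 10 with DMSO, and Mir155hg had 19 and 9. Windows of 100 kb in which DMSO libraries of the AID_WT genotype without idelalisib exceeded those without AID (14 of 22 tested) took 1.51% ± 0.195 with tazemetostat and 1.40% ± 0.158 with DMSO (SD, n = 5 each, exact permutation test, p = 0.373).

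No region outside Igh and the bait window passed. In limma voom fits 0 of 306 windows of 1 Mb (0%) and 0 of 69 windows of 100 kb (0%) passed, with 15 and 9 at an unadjusted p under 0.05, and 0 and 0 passed with limma trend. On simulated tallies these fits recovered 44.1% (1 Mb) and 26.1% (100 kb) of changes of 2-fold. Of changes of 4-fold they recovered 93.1% (1 Mb) and 91.3% (100 kb), with 2.06% and 12.5% of the calls false. Many changes of 2-fold could therefore be missed. The simulation changed 102 of 306 windows of 1 Mb and 23 of 69 of 100 kb, with a fixed, assumed spread between libraries. Recovery with few changed windows was not tested and could be lower. The 1 Mb window with the smallest p in the higher direction began at 59000000 on chromosome 15, with 64 junctions with tazemetostat and 36 with DMSO (log2 fold change 0.95, limma adjusted p = 0.636). The 100 kb window at 82000000 on the same chromosome held 58 junctions with tazemetostat and 29 with DMSO (limma adjusted p = 0.118). In the lower direction the window at 96500000 held 14 with tazemetostat and 29 with DMSO, with the same adjusted p from limma. The 100 kb window that holds mu and gamma3 had 1037 with tazemetostat and 1203 with DMSO (log2 fold change -0.22, limma adjusted p = 0.118).

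Across the 19 chromosomes other than 15 and Y, 0 passed in share of genome-wide junctions (0%). With a smallest exact p of 0.00794, a call over 19 chromosomes needs several of them at or near that value. The test could therefore not call a change of a lone chromosome. The smallest p was for chromosome 11, with 6.84% ± 0.328 with tazemetostat and 7.17% ± 0.0863 with DMSO (SD, n = 5 each, exact permutation test, p = 0.0317, adjusted p = 0.553). Strand shares were also tested in 7 classes, and 0 passed (0%), where a lone class at the smallest exact p could not pass either. The plus strand held 50.5% ± 1.53 of alpha junctions with tazemetostat and 52.9% ± 1.46 with DMSO (n = 5 each, exact permutation test, p = 0.0397, adjusted p = 0.278). Genome-wide it held 49.8% ± 0.542 with tazemetostat and 50.5% ± 0.774 with DMSO.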

How the data were processed

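Per the labels, libraries were prepared by LAM-HTGTS and read as paired-end 250 on a MiSeq, and per the submitters' processing notes positions refer to mm9. Aligner, caller and filters: not given in the sources used here. Per library, the authors deposited 1 headerless list with 1 line per junction. The deposited score of each junction has no stated meaning and was not used. Whether positions count from 0 or 1 is not stated. Runs were read from read names.

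Percents of each library were calculated in Python 3.11.15 (pandas 2.3.3, numpy 2.4.6). The bait was located as the densest 200 bp in DMSO libraries without AID, and switch peaks in the 50 libraries outside this comparison. Tazemetostat and DMSO libraries were compared by exact permutation tests (two-sided, on means), with Benjamini-Hochberg adjustment within each family and a threshold of 0.05. Intervals are the shifts the exact test does not reject. Interactions used 100000 Freedman-Lane draws. Tallies in windows and bins went into voom of limma 3.58.1 (R 4.3.3). Windows of 1 Mb needed a mean tally of 5, and 100 kb windows and 1 kb bins one of 2. Library size was genome-wide junctions, or all junctions for the bins. The exact test and the window and bin fits were tested on simulated data. With 5 of 16 bins changed, the bin fit recovered 100% of changes of 2-fold and 60% of 4-fold. The interaction test and limma on log2 shares were not tested on simulated data.

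The members, gene lists and tests were chosen with earlier results of these data known. The 21 off-target intervals were written from knowledge, and their chromosomes and order matched a gene table of a later build. Named were switch regions, light chains, loci with a mean of at least 5 junctions per library in either group, and windows that passed or, with fewer than 3 in a direction, the 3 with the smallest p, of which some are printed. Alternatives covered repeats counted 1 time, thinning, denominators, widths, library sizes, filters, limma on log2 shares with a pseudocount of 0.05, a replicate block and each library left out in turn. Chosen after seeing the data were the other denominator and distance limits for the bait window, the interaction tests of bait shares and of Igh parts among all junctions, and leaving out libraries in the interactions. Replicate numbers were not taken as pairs. Depth limits sparse loci: intervals cover the spread between libraries, and the limit for a count of 0 covers counting error only.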

Additional observations from a re-analysis of the deposited data

Results flagged for a closer look

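One DMSO library stood far below the others at gamma1: replicate 2 had 1.72% of its Igh junctions there (7 junctions), while the other DMSO libraries had 4.02% to 4.29%. Without it the gamma1 difference was 4.44 points and still passed (exact permutation test, adjusted p = 0.0476). Tazemetostat replicate 5 stood below its group for the plus strand from 20 kb to 1 Mb above the bait, at 1.79% of bait window junctions. Of 52 sets of 5 values checked, 2 were flagged in this way, and chance flags about 1 in 20.

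The tazemetostat effect differed between cells with and without idelalisib for several shares, by Freedman-Lane permutation tests. For gamma1 among Igh junctions the difference of effects was 4.24 points (adjusted p = 0.00096). In the bait window it was -2.55 points within 1 kb below on the minus strand (adjusted p = 0.00096), where the effect was -1.89 with idelalisib and 0.653 without. It was 3.51 points within 1 kb above on the plus strand (adjusted p = 0.0404), where the effect was -0.0646 with idelalisib and -3.58 without. From 1 to 20 kb above it was 2.16 points on the plus strand (adjusted p = 0.0474) and -0.578 points on the minus strand (adjusted p = 0.0404). From 20 kb to 1 Mb above on the minus strand it was -0.400 points (adjusted p = 0.0106). The bait terms were chosen after seeing the data, and idelalisib and run cannot be told apart in any of them.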

How the results depend on the processing

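The gamma1 and mu differences kept their direction under every alternative tried. With 1 library left out, the exact test cannot go below p = 0.0159, so 2 parts at that value have an adjusted p of 0.0714, above the threshold by construction. This ended the gamma1 and mu calls among Igh junctions except without tazemetostat replicate 2 or DMSO replicate 2. Differences then ranged from 4.44 to 5.22 points for gamma1 and from -5.82 to -4.43 for mu. Among all junctions they ranged from 0.160 to 0.190 for gamma1 and from -0.272 to -0.215 for mu, passing only without DMSO replicate 2. As percents of junctions outside the bait window they were 0.260 and -0.318 and did not pass. Gamma2b passed with parts of 2 kb (1.67) or 10 kb (1.91), with limma on log2 shares (0.50) and without tazemetostat replicate 2, and ranged from 1.49 to 2.20 with a library left out. Gamma3 ranged from -1.91 to -1.25 of Igh and from -0.0728 to -0.0457 of all junctions, passing only without DMSO replicate 2. The gamma1 difference from cells without idelalisib did not pass on the log2 scale (0.97), and the Igh share's difference ranged from 0.520 to 0.717.

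With a library left out, the signs of small differences turned: Igh share from -0.160 to 0.00737, alpha from -0.864 to 0.318 of Igh and from -0.0809 to 0.0126 of all junctions, off-target loci from -0.0908 to 0.0436. In the bait window this held within 1 kb above on the plus strand (-0.559 to 0.367) and from 1 to 20 kb below on the plus strand (-0.199 to 0.00950). The first was also 0.646 and 0.253 with other distance limits and 0.216 of all junctions, and the second 0.00719 with limits of 2 kb and 50 kb. Within 1 kb below on the plus strand the difference ranged from -1.20 to -0.648, passing without DMSO replicate 4 and, at -0.560, with repeats counted 1 time.

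The 5 bait calls ranged, with a library left out, from -2.12 to -1.61 (within 1 kb below, minus strand), 1.52 to 1.95 and -0.363 to -0.284 (1 to 20 kb above, plus and minus), and 0.416 to 0.525 and -0.319 to -0.206 (beyond 20 kb above, plus and minus). Each of the 5 lost its call at least 4 times. At a smallest exact p of 0.0159, a call over 12 shares then needs several shares at or near that value. The part of this floor in the lost calls was not tested. In the same order the 5 differences were -0.488, 0.717, -0.0714, 0.150 and -0.0779 of all junctions, and none passed. With limits of 2 kb and 50 kb the last 4 were 1.45, -0.321, 0.382 and -0.148 and did not pass, with 500 bases and 10 kb the plus strand from there to 10 kb was 0.862, and thinning gave -0.311 for the minus strand from 1 to 20 kb.

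Among 1 kb bins 4 to 8 passed with a library left out. The 100 kb windows gave 0 to 1, and 1 with all junctions as library size. With replicate numbers as a replicate block, limma on log2 shares kept gamma1 (1.28) and mu (-0.16) and the 5 bait calls past the threshold, and 5 bins passed. Gamma2b, which passed in limma on log2 shares without the block, did not pass with it (adjusted p = 0.170). Same-numbered libraries correlated with r from 0.000951 to 0.0483 over 1 Mb windows, -0.0329 to 0.383 over 100 kb windows and -0.448 to 0.625 over Igh bins, and in none of these did every library correlate best with its own number.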

Other observations

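Chromosome 15 outside the bait window held 33 of the 306 windows of 1 Mb tested and 5 of the 15 with an unadjusted p under 0.05, of which 4 were higher and 1 lower with tazemetostat. None passed after adjustment in limma voom. The share of all junctions on the rest of this chromosome was 3.90% ± 0.149 with tazemetostat and 3.72% ± 0.169 with DMSO (SD, n = 5 each, exact permutation test, p = 0.103, adjusted p = 0.259), with 4 of 5 tazemetostat libraries above every DMSO library. These windows were tested with a library size that leaves chromosome 15 out, and the part of that choice in the count was not tested.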
